A study of Mus musculus with 5 samples.

Results

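The cytosolic ribosomal protein genes were described in RNAseq of macrophages sorted from mouse aortas. They were taken from the table of counts by name, as every protein-coding gene whose symbol starts with Rpl or Rps and a digit, together with Rplp0, Rplp1, Rplp2 and Rpsa. Kinases of the Rps6k family and Rps19bp1 were left out. This gave 93 of the 55487 genes in the table. The name rule itself uses no measured value, though it was set with earlier results of these data known. They are 77 genes of the ribosome itself, with 43 of the large subunit, 31 of the small subunit and 3 of the acidic stalk, 8 paralogs and 8 copies whose annotation as protein-coding brings them under the name rule. After the filter on low counts 86 genes were tested, and all 77 genes of the ribosome were among them.

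The libraries came from male mice kept on chow until 8 weeks of age and then on a Western diet for 10 weeks. There were 2 Zeb1WT/ApoeKO libraries and 3 Zeb1∆M/ApoeKO libraries, and Apoe was deleted in both genotypes. In Zeb1∆M mice, Cre expressed from the Lyz2 (LysM) gene deletes Zeb1 in myeloid cells and not only in aortic macrophages. Live cells positive for CD45 and F4/80 per the labels, and also for CD11b per the methods of the study, were sorted, the macrophages of 3 mice were pooled per genotype and condition, and cDNA was amplified with a kit for ultra-low input. The study describes its replicates as biologically independent, but no label says that libraries of a genotype came from separate pools of mice. Its methods give libraries made in triplicate and do not say whether these came from a single pool per genotype. The p-values measure the spread between these libraries, whatever its source.

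Ribosomal proteins are bound to rRNA in the nucleolus, and the small and large subunits that they form join on mRNA in the cytosol. Their mRNAs are among the most abundant in most cells and are made in roughly matched amounts, since outside the stalk each protein is present as a single copy in most ribosomes. In many of them the transcript starts with a C followed by a run of pyrimidines, the TOP motif, through which mTORC1 and Larp1 control their translation. In macrophages this control links protein synthesis to nutrients and activation. Several members have further roles, among them Rpl5 and Rpl11, which bind Mdm2, and Rpl13a, which leaves the ribosome in myeloid cells exposed to interferon-gamma.

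The stretches around the annotated start sites were searched for such runs, and those of 8 members on which the values below turn are shown. RefSeq windows of GRCm38.p6, from 250 bases before to 50 bases after the start, were matched by symbol for 57 of the 77 genes. A run of at least 8 C or T within 20 bases of the start occurred in 28 of the 57 genes (49.1%), against 4965 of 27025 genes with a window (18.4%). A C at the annotated first transcribed base followed by at least 4 pyrimidines occurred in 13 of the 57 (22.8%) and in 813 of all 27025 (3.01%). The letters CCGGAAG, searched on both strands over the whole window, were found for 24 of the 57 genes (42.1%) and 9.93% of all genes, and TATAAA, also on both strands, for 6 (10.5%) and 15.7%. In the following windows of 20 bases on either side of the start, written 5′ to 3′ on the strand of the gene, capitals mark the longest pyrimidine run. By annotation the first transcribed base is the 21st of the 40 bases, and 4 of the 8 windows (Rpl14, Rpl35, Rpl38 and Rps18) have a C there followed by at least 4 pyrimidines, whereas in Rpl19, Rpl4, Rpl13a and Rpl7a the run lies before, after or across an annotated start that is not a C. The starts used in these macrophages were not measured, so the windows do not show which genes lack a TOP motif. Rpl19 was a reference gene for mouse samples in the study's qRT-PCR, Rpl35 ranked high and Rpl7a and Rpl14 low per kilobase, Rpl13a was the most even across libraries in TMM CPM, and Rps18, Rpl38 and Rpl4 did not overlap between genotypes.
Rpl19: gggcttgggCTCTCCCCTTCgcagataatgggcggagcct
Rpl35: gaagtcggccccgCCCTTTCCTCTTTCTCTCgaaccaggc
Rpl13a: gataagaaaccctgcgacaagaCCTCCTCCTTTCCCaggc
Rps18: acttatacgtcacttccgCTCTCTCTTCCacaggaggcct
Rpl38: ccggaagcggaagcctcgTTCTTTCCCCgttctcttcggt
Rpl4: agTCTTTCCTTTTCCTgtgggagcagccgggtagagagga
Rpl7a: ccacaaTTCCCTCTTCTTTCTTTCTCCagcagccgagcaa
Rpl14: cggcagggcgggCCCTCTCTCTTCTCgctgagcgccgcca

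In GRCm38.p6 these windows lie at chr11:98026904-98026943 on the plus strand (Rpl19), chr2:39005112-39005151 on the minus strand (Rpl35), chr7:45128726-45128765 on the minus strand (Rpl13a) and chr17:33955646-33955685 on the minus strand (Rps18). The others lie on the plus strand, at chr11:114668560-114668599 (Rpl38), chr9:64173367-64173406 (Rpl4), chr2:26910787-26910826 (Rpl7a) and chr9:120571497-120571536 (Rpl14). The runs of Rpl13a, the most even of these 8 genes in TMM CPM, and of Rpl14, which ranged most widely, were equally long, at 14 bases. Of the genes with a window, 8 of the 14 under 100 counts in Zeb1∆M/ApoeKO replicate 1 had such a run, as did 20 of the 43 at 100 counts or more.

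Total counts were 20118545 and 34596110 in Zeb1WT/ApoeKO replicates 1 and 2, and 24372265, 35771785 and 50649912 in Zeb1∆M/ApoeKO replicates 1, 2 and 3. A count of 3 was used as the floor of detection, equal to 0.0597 to 0.248 CPM (counts per effective library size after TMM scaling). Floors and intervals cover counting error only, since amplification copies molecules. Zeb1, the targeted gene, had 22 counts in Zeb1∆M/ApoeKO replicate 1 and 0 in the other 4 libraries, and so did not check the labels. Counts of 10 macrophage markers summed to between 23047 and 34394 CPM, here scaled by total counts alone, but Cd68 had 0 counts in Zeb1WT/ApoeKO replicate 1 and 10 in Zeb1∆M/ApoeKO replicate 1, against 36172 to 46735 in the other 3 libraries. The largest part of the sum was Lyz2 in Zeb1WT/ApoeKO replicate 1 (596080 counts) and C1qb in Zeb1∆M/ApoeKO replicate 1 (398502). In the same order, C1qa had 0 and 5 counts and Csf1r 502 and 25, both below their counts elsewhere. Ptprc had 13409 and 475, Mrc1 10875 and 24, and Adgre1 9368 and 1068. Markers of T cells (7 genes) reached 5931 CPM in Zeb1WT/ApoeKO replicate 2 and lay between 0.533 and 1377 elsewhere. Neutrophil markers (7 genes) lay between 39.6 and 3591 with Camp, Ngp and Ly6g at the floor or below in every library, and markers of B cells and smooth muscle did not exceed 3.69 in any library. Erythroid markers (4 genes) reached 2571 CPM in Zeb1∆M/ApoeKO replicate 1, mostly from 60292 counts of Hba-a1, with Hbb-bt and Alas2 at 0 in every library. The sum of 4 adipocyte markers, which reached 1250 CPM in the same library, came from Fabp4, a gene that macrophages also express, with Cidec at 0 throughout and Adipoq and Plin1 at 4 counts or fewer. The sum of 5 fibroblast markers reached 531 CPM in Zeb1∆M/ApoeKO replicate 2, nearly all from Dcn with 19005 counts, and no other gene of the list exceeded 111 counts in any library. Endothelial markers (5 genes) reached 224 CPM, with Tek and Cdh5 at 0 in every library. The part of other cells in the results on ribosomal protein genes was not tested.

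Ribosomal protein genes took between 1.84% and 7.11% of all counts. The share was 5.87% in Zeb1WT/ApoeKO replicate 1 (95% Wilson interval 5.862 to 5.883) and 1.84% in replicate 2 (1.84 to 1.849). It was 7.11% (7.1 to 7.121), 3.29% (3.283 to 3.295) and 2.63% (2.623 to 2.632) in Zeb1∆M/ApoeKO replicates 1, 2 and 3. The libraries numbered 1 had the highest share in each genotype, and the genotypes overlapped. As summed CPM, the genes reached 30647 ± 17151 (SD, n = 2) in the Zeb1WT/ApoeKO libraries and 65666 ± 66974 (SD, n = 3) in the Zeb1∆M/ApoeKO libraries, a difference smaller than the spread between libraries. Its sign rested on Zeb1∆M/ApoeKO replicate 1, with 142998 CPM, and without that library the Zeb1∆M/ApoeKO minus Zeb1WT/ApoeKO difference was −11451 CPM in place of 35018. The size of the difference also depended on the scaling and on other libraries, being 4964 CPM with total counts alone, 89317 with RLE size factors, 6756 without Zeb1WT/ApoeKO replicate 2, 65453 without Zeb1∆M/ApoeKO replicate 3 and 11324 without both libraries numbered 1. In bulk RNA, a larger share of cells rich in these mRNAs and more of these mRNAs per cell cannot be told apart.

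**Figure D1:**
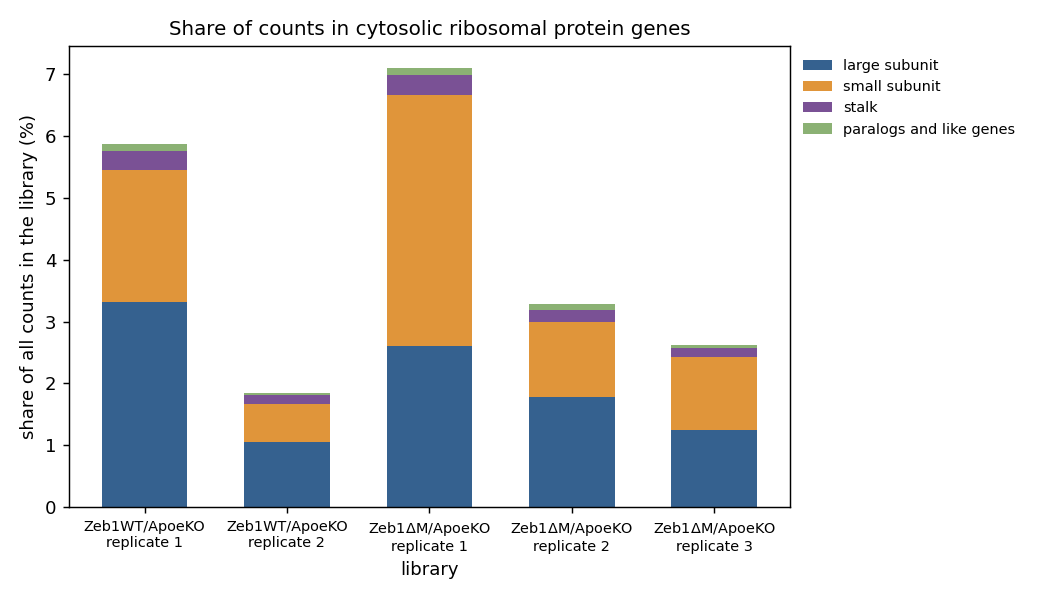
Share of all counts (percent, vertical axis) taken by the large subunit, small subunit, stalk and paralog genes in each of the 5 libraries, as stacked bars. The share is highest in Zeb1∆M/ApoeKO replicate 1, where the small subunit took 4.05%, and lowest in Zeb1WT/ApoeKO replicate 2.

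The balance between the subunits differed between libraries as well. Large subunit genes took 3.31% and 1.05% of counts in the Zeb1WT/ApoeKO libraries and 2.61%, 1.78% and 1.25% in the Zeb1∆M/ApoeKO libraries. Small subunit genes took 2.14% and 0.619%, and 4.05%, 1.22% and 1.17%, in the same order. The large subunit, summed over 43 genes against 31, thus exceeded the small subunit in 4 of 5 libraries, and the reverse held in Zeb1∆M/ApoeKO replicate 1. Per gene, the median CPM per kilobase of transcript was higher for the small subunit in every library. It was 1774 against 207 in Zeb1∆M/ApoeKO replicate 1 and 306 against 305 in Zeb1∆M/ApoeKO replicate 2. A single gene, Rps19, whose mutation underlies Diamond-Blackfan anaemia, had 207995 counts in that library. The 10 genes with the most counts held 59.8% of the counts of all members there and between 31.9% and 42.9% in the other libraries.

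The stalk genes were counted in every library. The proteins of Rplp1 and Rplp2 bind as dimers to that of Rplp0, and the stalk recruits the translational GTPases. Rplp1 had 10784 and 6320 counts in the Zeb1WT/ApoeKO libraries and 42629, 16579 and 16938 in the Zeb1∆M/ApoeKO libraries. For Rplp2 the counts were 20249 and 1753, and 36943, 5636 and 8203. Both were highest in Zeb1∆M/ApoeKO replicate 1, where Rplp0 in contrast had 164 counts against 32141 to 54029 in the other 4 libraries. Partners of the same complex were thus at opposite ends of their ranges in 1 library.

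Zeb1∆M/ApoeKO replicate 1 stood apart over the whole set. This library also had the lowest TMM factor, 0.515 against 1.03 to 1.42 in the others, and at least 1 count for 20919 genes of the table against 7395 to 10689, and their part in what follows was not tested. Of the 77 genes, 38 had their highest CPM of the 5 libraries in it and 28 their lowest. The SD of log2 CPM per kilobase of transcript (prior count 2) over the 77 genes was 5.13 in this library. It was 3.17 in Zeb1WT/ApoeKO replicate 1, 2.41 in Zeb1WT/ApoeKO replicate 2, and 1.54 and 1.47 in Zeb1∆M/ApoeKO replicates 2 and 3. The median on the same scale ranged only from 7.47 to 8.82, so that the libraries differed more in the scatter of the genes than in their middle.

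**Figure D2:**
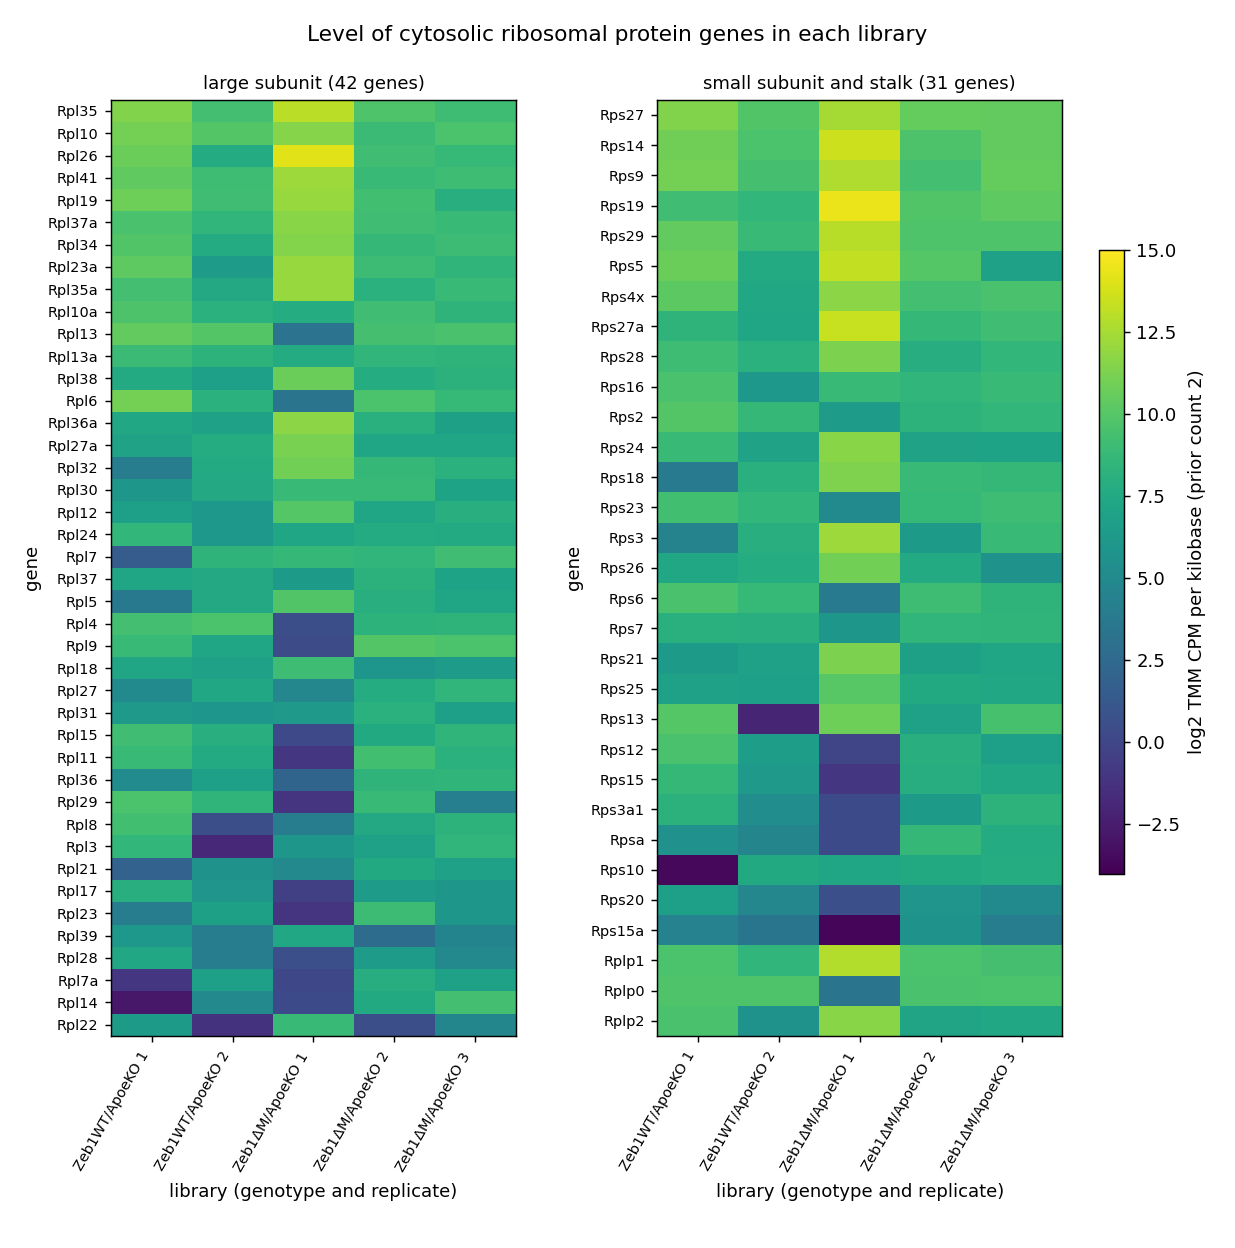
Heat map of the level of 73 of the 77 genes (rows, ordered by mean within large subunit, small subunit and stalk) in each library (columns), in log2 TMM CPM per kilobase with a prior count of 2. The column of Zeb1∆M/ApoeKO replicate 1 holds both the highest and many of the lowest values, and Zeb1∆M/ApoeKO replicates 2 and 3 are the most even.

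Many genes with over 1000 counts in most libraries were nearly absent from another. Fewer than 100 counts were found for 5 and 4 of the 77 genes in Zeb1WT/ApoeKO replicates 1 and 2, and for 20, 0 and 0 genes in Zeb1∆M/ApoeKO replicates 1, 2 and 3. In Zeb1WT/ApoeKO replicate 1 they included Rpl7, Rpl7a, Rpl14 and Rps10, and in replicate 2 they were Rpl3, Rpl8, Rpl22 and Rps13. None of the 9 genes was low in both. The 20 genes of Zeb1∆M/ApoeKO replicate 1 included Rpl4, Rpl7a, Rpl9, Rpl11, Rpl13, Rpl14, Rpl15, Rpl17, Rpl23, Rpl28, Rpl29, Rpl36, Rpsa, Rps3a1, Rps12, Rps15, Rps15a and Rps20. Among the 20 were 3 of the 5 low genes of Zeb1WT/ApoeKO replicate 1, Rpl7a and Rpl14 among them, and 0 of the 4 of replicate 2. At 3 counts or fewer were 2, 1, 6, 0 and 0 genes in the order of the libraries above, and no gene was that low in more than 1 library.

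**Figure D3:**
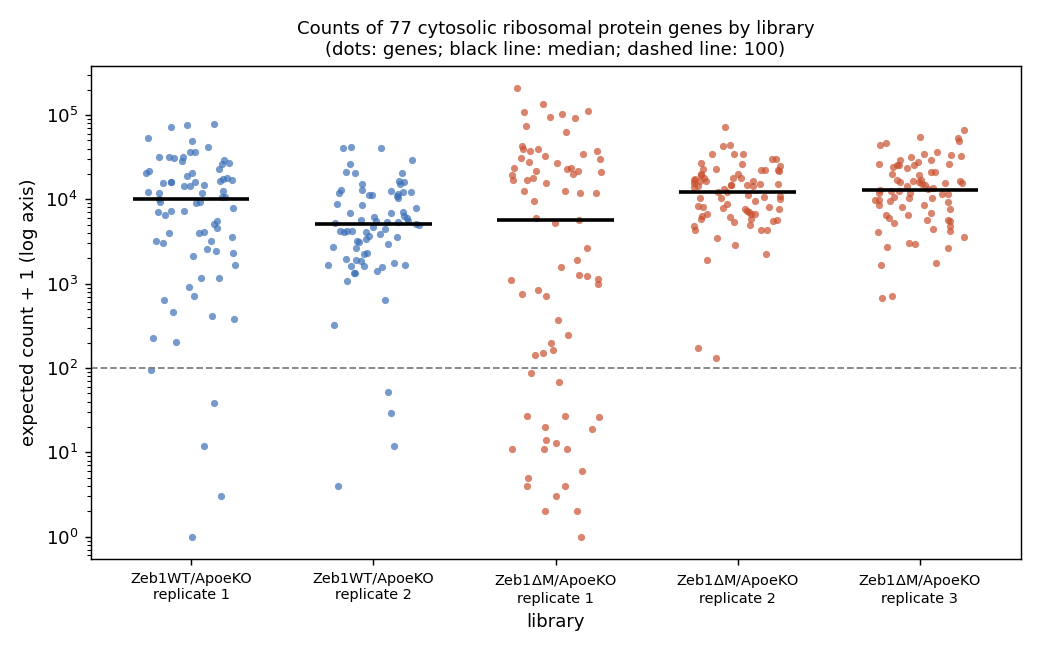
Expected counts plus 1 (log axis) of the 77 genes in each library. Dots are genes, black lines are medians between 5103 and 12845 counts, and the dashed line marks 100 counts, below which 20 genes lie in Zeb1∆M/ApoeKO replicate 1 and none in Zeb1∆M/ApoeKO replicates 2 and 3.

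The gaps were deep. Rps13, of the small subunit, had 3 counts in Zeb1WT/ApoeKO replicate 2 and 16356, 12664, 2875 and 21236 in Zeb1WT/ApoeKO replicate 1 and Zeb1∆M/ApoeKO replicates 1, 2 and 3. Rps10 had 0 counts in Zeb1WT/ApoeKO replicate 1 and 5672, 1564, 7113 and 9661 in the others. Of the pair that binds Mdm2, Rpl11 had 3 counts in Zeb1∆M/ApoeKO replicate 1 and between 5525 and 21390 elsewhere, while Rpl5 had 23026 counts in that library and its lowest value, 710, in Zeb1WT/ApoeKO replicate 1. Rps6, the small subunit protein phosphorylated downstream of mTORC1, had 142 counts in Zeb1∆M/ApoeKO replicate 1 and between 12979 and 20131 in the other 4 libraries.

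Over all 5 libraries, 51 of the 77 genes had at least 100 counts in every library. The median ratio of the highest to the lowest CPM of a gene was 46.5 over the genes above 0 everywhere, and 2.5 among Zeb1WT/ApoeKO replicate 2 and Zeb1∆M/ApoeKO replicates 2 and 3 alone, the 3 libraries not numbered 1. In TMM CPM Rpl13a was the most even, with 14470 and 11545 counts in the Zeb1WT/ApoeKO libraries and 2624, 16345 and 17032 in the Zeb1∆M/ApoeKO libraries, a ratio of CPM of 2.42. Rpl37 (3.46) and Rpl10a (3.84) were also among the most even. This order depended on the scaling. Rpl18 was the most even with total counts alone (3.59, against 6.66 for Rpl13a), Rpl37 with RLE size factors (2.42, against 4.03) and Rpl7a with upper-quartile factors (15.4, against 137), and the median ratio was 27.8, 87.3 and 495 in the same order.

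Per kilobase, the 5 genes with the highest mean level were Rps27, Rps14, Rps9, Rpl35 and Rps19. Rps27 lay between 935 and 5684 CPM per kilobase, with 25889 and 11113 counts in the Zeb1WT/ApoeKO libraries and 23765, 22001 and 23859 in the Zeb1∆M/ApoeKO libraries. Rpl35 lay between 549 and 8166 CPM per kilobase, with 71636 and 20746 counts, and 93612, 34768 and 26109, in the same order. Both genes were highest per kilobase in Zeb1∆M/ApoeKO replicate 1. Rps14 had 41500 and 20821 counts in the Zeb1WT/ApoeKO libraries and 112717, 27295 and 54703 in the Zeb1∆M/ApoeKO libraries, and Rps9 had 52684 and 20630, and 74954, 24947 and 66810. Rps19 had 591 and 387 CPM per kilobase in the Zeb1WT/ApoeKO libraries and 22175, 908 and 1262 in the Zeb1∆M/ApoeKO libraries (12638 and 10316 counts, and 207995, 30058 and 49067), so that its rank rested on replicate 1. The 5 lowest were Rps20, Rpl7a, Rpl22, Rpl14 and Rps15a. Rpl7a, between 0.436 and 224 CPM per kilobase, had 11 and 3339 counts in the Zeb1WT/ApoeKO libraries and 10, 8742 and 5274 in the Zeb1∆M/ApoeKO libraries. Rpl14, between 0.0718 and 632 CPM per kilobase, had 2 and 1078 counts, and 13, 8178 and 32019. Both were low in the libraries numbered 1, whereas Rpl22, between 0.396 and 473 CPM per kilobase, was lowest in Zeb1WT/ApoeKO replicate 2. Rps20 had 10567 and 3552 counts, and 67, 9661 and 5959, and Rps15a had 2997 and 1900, and 3, 11340 and 4226. The annotated transcripts of Rps15a and Rps20 used for this scale, of 5179 and 3706 bases, are far longer than the median of 886, which lowers their values. Within the 5 highest and within the 5 lowest genes, the ranges of neighbours in the order overlapped.

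The order of these genes was described for every pair of libraries. Spearman's rho of counts per kilobase over the 77 genes, which share library and transcript length and are not replicates, was 0.51 between the Zeb1WT/ApoeKO libraries. It was 0.61 between Zeb1∆M/ApoeKO replicates 2 and 3 and 0.3 and 0.38 between these and replicate 1. Across genotypes it ran from 0.32 to 0.7, the highest of all pairs being that of the libraries numbered 2.

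Fewer ribosomal protein genes than other genes of high mean count were nearly absent from a library. Among genes with a mean of at least 10000 counts over the 5 libraries, 8 of 43 members (18.6%) had fewer than 100 counts in some library, against 363 of 532 other genes (68.2%), while the median of the mean counts was alike, at 17921 and 18074. Among genes with a mean of at least 1000 counts, the shares were 29 of 80 members (36.2%) and 3598 of 3833 other genes (93.9%), where the median mean counts differed, at 11241 and 3165. In Zeb1∆M/ApoeKO replicate 1, 14% of members and 54.9% of other genes above the higher limit were under 100 counts. The corresponding values were 4.65% and 28.9% in Zeb1WT/ApoeKO replicate 1, 2.33% and 6.2% in Zeb1WT/ApoeKO replicate 2, 0% and 10.7% in Zeb1∆M/ApoeKO replicate 2, and 0% and 3.95% in Zeb1∆M/ApoeKO replicate 3. Both shares were highest in Zeb1∆M/ApoeKO replicate 1, followed by Zeb1WT/ApoeKO replicate 1. These shares are descriptions over genes, with no test, and members have shorter transcripts than the genes tested (median 886 against 2911 bases). The limit on the mean uses the same 5 libraries, so that a gene can pass it through a single library. The part of this selection in the shares was not tested.

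**Figure D4:**
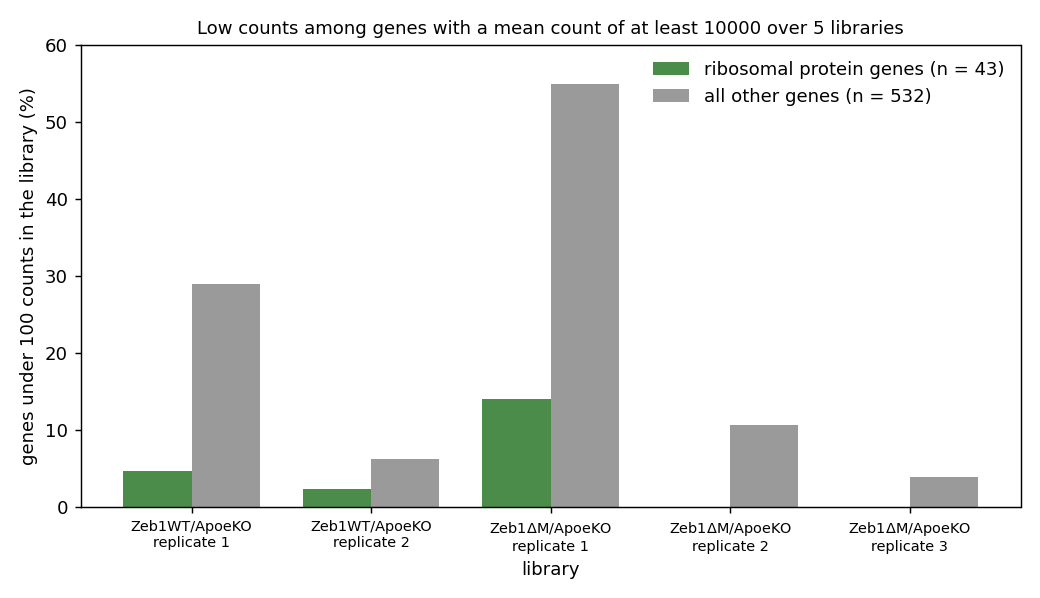
Percent of genes under 100 counts in each library, among ribosomal protein genes (43) and all other genes (532) with a mean count of at least 10000 over the 5 libraries. Members are lower in every library, and both bars are highest in Zeb1∆M/ApoeKO replicate 1, at 14% and 54.9%.

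The comparison of genotypes asks whether loss of Zeb1 in myeloid cells changed these mRNAs in plaque macrophages. With edgeR's quasi-likelihood test and Benjamini-Hochberg adjustment over all 7905 genes tested, 0 of 86 members had an adjusted p under 0.05, as did 0% of all genes. At an unadjusted p under 0.05 there were 0 members, against 1.09% of all genes. The lowest unadjusted p of a member was that of Rps19, 0.0934. DESeq2, the tool of the study, called 1 of 72 members with an adjusted p (12.1% of all genes), and limma-voom 1 of 86 (2.96%), in both cases the paralog Rpl22l1. That paralog passed the filter on low counts only through Zeb1∆M/ApoeKO libraries, where it was high. Fold changes above 0 on the log2 scale, that is, higher in the Zeb1∆M/ApoeKO libraries, were found for 59 members and below 0 for 27, with a median of 1.10 against 0.78 over all genes tested. The direction depended on the scaling. With upper-quartile factors 38 of 86 members were above 0, with a median of −0.35 against 0.29 over all genes, and with total counts alone 49 were, with a median of 0.31 against 0.13. By group, the median was 1.05 over 43 large subunit genes, 1.11 over 31 small subunit genes and 1.51 over the 3 stalk genes. Without Zeb1∆M/ApoeKO replicate 1 the medians were −0.39 for members and 0.14 for all genes, and 36 members were above 0.

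CPM did not overlap between genotypes for 15 of the 86 members. All 3 Zeb1∆M/ApoeKO libraries were higher for 11 (12.8% of members), against 6.68% of all genes tested, and all 3 were lower for 4 (4.65%), against 4.54%. The higher members included Rpl7, Rpl12, Rpl32, Rpl38, Rps18, Rps19, Rps25, Rps27a, Rpl22l1 and Rps18-ps5, and the lower were Rpl4, Rpl13, Rplp0 and Rps2. Among the higher members, Rpl7, Rpl32, Rps18 and Rps18-ps5 had a far lower value in Zeb1WT/ApoeKO replicate 1 than in any other library. For all 4 lower members the lowest value was that of Zeb1∆M/ApoeKO replicate 1. The counts of 11 and 4 depended on single libraries, and so did the shares over all genes tested. Without Zeb1WT/ApoeKO replicate 1, 35 members were higher (40.7%, against 13.3% of all genes) and 2 lower (2.33%, against 25.5%). Without Zeb1WT/ApoeKO replicate 2 the numbers were 20 (23.3%, against 17.1%) and 25 (29.1%, against 14%), and without Zeb1∆M/ApoeKO replicate 1 they were 19 (22.1%, against 12.4%) and 10 (11.6%, against 11.9%). Without both libraries numbered 1, which leaves 1 library against 2, they were 61 (70.9%, against 22.3%) and 6 (6.98%, against 30.5%). Scaling by RLE size factors gave 7 (8.14%, against 6.6%) and 2 (2.33%, against 4.29%), and by upper-quartile factors 4 (4.65%, against 5.95%) and 1 (1.16%, against 4.91%). The share of higher members was above that of all genes with each of these libraries left out and with RLE size factors, and below it with upper-quartile factors. The share of lower members lay above or below that of all genes depending on the library left out.

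Rps18, a protein of the head of the small subunit, had 224 and 5103 counts in the Zeb1WT/ApoeKO libraries and 17796, 10649 and 11493 in the Zeb1∆M/ApoeKO libraries. With edgeR the log2 fold change was 3.05 ± 3.87 (standard error), with an adjusted p of 1. This corresponds to 78.1 ± 99.0 CPM (SD, n = 2) in the former and 649 ± 710 CPM (SD, n = 3) in the latter. The exact permutation p (two-sided) was 0.1, the smallest that 2 libraries against 3 allow. The log2 fold change was 1.55 without Zeb1∆M/ApoeKO replicate 1, 1.94 without Zeb1WT/ApoeKO replicate 1 and 5.88 without Zeb1WT/ApoeKO replicate 2. On chromosome 17 of GRCm38, where the gene spans 33951999 to 33956001 on the minus strand, 156 of its exon bases are shared with exons of Vps52 on the opposite strand. Vps52 had 11243 and 9103 counts in the Zeb1WT/ApoeKO libraries and 4, 0 and 2 in the Zeb1∆M/ApoeKO libraries, the reverse order. The kit is not stated to mark strand, so that reads on the shared bases cannot be told apart, and their part in either gene was not tested.

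Rpl32 and Rpl7, both of the large subunit, were like Rps18 low in Zeb1WT/ApoeKO replicate 1. Rpl32 had 414 and 6077 counts in the Zeb1WT/ApoeKO libraries and 21881, 15774 and 12602 in the Zeb1∆M/ApoeKO libraries, and Rpl7 had 93 and 12913, and 5641, 17801 and 34715. On the log2 scale they were higher by 3.08 ± 3.70 and 1.47 ± 3.64 (edgeR, ± standard error), both at an adjusted p of 1 and a two-sided exact permutation p of 0.1. For Rpl7, the Zeb1∆M/ApoeKO libraries had 465, 416 and 691 CPM and Zeb1WT/ApoeKO replicate 2 had 375, so that the gap to this library was small. The log2 fold change of Rpl7 was 0.49 without Zeb1WT/ApoeKO replicate 1 and 7.14 without replicate 2. That of Rpl32 was 2.01 and 5.32 in the same order, and 1.62 without Zeb1∆M/ApoeKO replicate 1.

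Rps19, Rps27a, Rpl12, Rpl38 and Rps25 did not have such a low value in Zeb1WT/ApoeKO replicate 1, and like Rps18 and Rpl32 they were highest in Zeb1∆M/ApoeKO replicate 1. Rps19 had 458 and 299 CPM in the Zeb1WT/ApoeKO libraries and 17163, 703 and 977 in the Zeb1∆M/ApoeKO libraries. Rps27a, made as a fusion with ubiquitin, had 262 and 121 CPM and 8487, 312 and 464. Rpl38, a large subunit protein needed for translation of some Hox mRNAs, had 87.4 and 47.0 CPM and 789, 99.8 and 137. In each case the other two Zeb1∆M/ApoeKO libraries lay above the Zeb1WT/ApoeKO libraries by a smaller margin. Rpl12, at the base of the stalk, had 129 and 85.5 CPM and 1272, 181 and 293. Rps25, of the small subunit head, had 149 and 137 CPM and 1382, 237 and 205. Differences on the log2 scale (edgeR, ± standard error) were 4.05 ± 2.42 for Rps19, 4.01 ± 2.87 for Rps27a, 2.44 ± 3.81 for Rpl12, 2.35 ± 4.27 for Rpl38 and 2.09 ± 3.68 for Rps25, and edgeR's adjusted p was 1 for all 5. The two-sided exact permutation p was 0.3 for Rps19, Rps27a and Rps25 and 0.2 for Rpl12 and Rpl38. Without Zeb1∆M/ApoeKO replicate 1 the differences were 0.90 for Rps19, 0.75 for Rps27a, 0.89 for Rpl12, 0.55 for Rpl38 and 0.41 for Rps25. That of Rpl38 was 1.52 without Zeb1WT/ApoeKO replicate 2. Rps25 shares 462 exon bases with Trappc4 on the opposite strand, which had 0 and 13 counts in the Zeb1WT/ApoeKO libraries and 27645, 4331 and 0 in the Zeb1∆M/ApoeKO libraries.

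**Figure D5:**
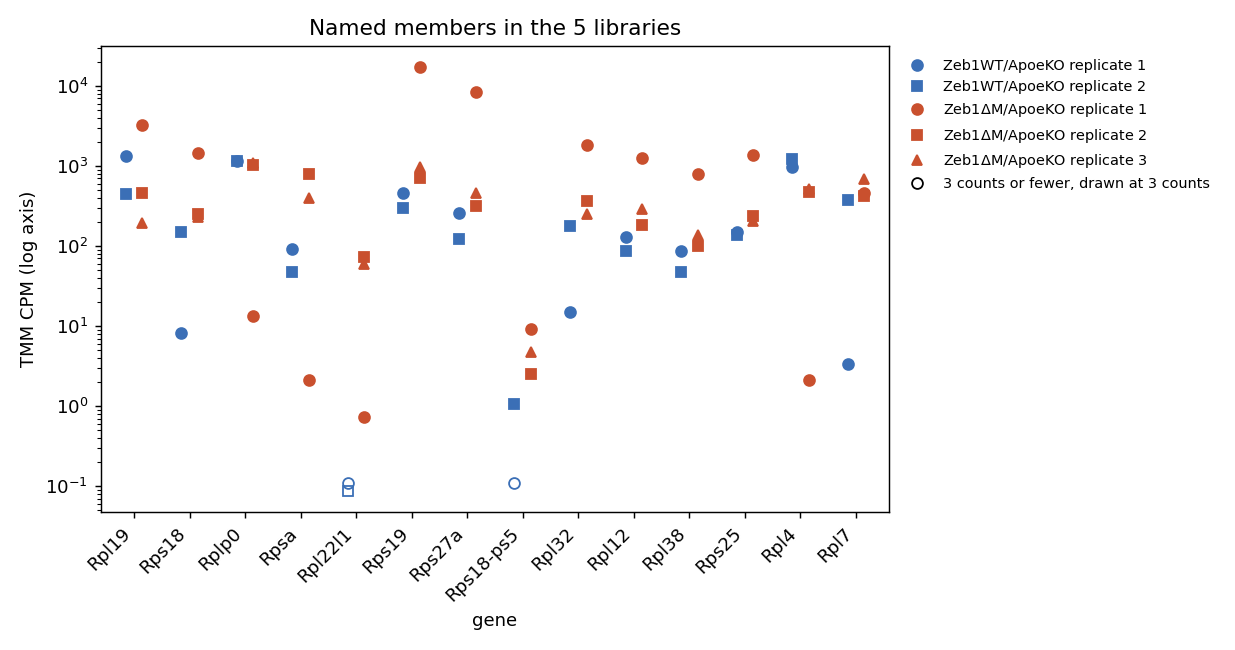
TMM CPM (log axis) of the 14 members with a log2 fold change in the text, with 1 point per library, coloured by genotype and shaped by replicate number. Open points had 3 counts or fewer and are drawn at that floor. Zeb1∆M/ApoeKO replicate 1 is the highest point for Rps19 at 17163 CPM and the lowest for Rplp0, Rpl4 and Rpsa.

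Among the lower members, Rpl4, which lines part of the exit tunnel of the large subunit, had 985 and 1222 CPM in the Zeb1WT/ApoeKO libraries and 2.15, 469 and 512 in the Zeb1∆M/ApoeKO libraries. All 3 Zeb1∆M/ApoeKO libraries were below both others, with a difference of −1.75 ± 3.07 on the log2 scale (edgeR, ± standard error) and an adjusted p of 1. Rplp0 had 1164 and 1163 CPM and 13.5, 1024 and 1075 CPM, and the difference was −0.72 ± 2.85 on the same scale, also with an edgeR adjusted p of 1. The two-sided exact permutation p was 0.4 for Rpl4 and 0.5 for Rplp0. Apart from Zeb1∆M/ApoeKO replicate 1, the 4 libraries of Rplp0 were close together. Without both libraries numbered 1 the difference was 0.00, without Zeb1∆M/ApoeKO replicate 1 it was −0.36 and without Zeb1∆M/ApoeKO replicate 3 it was −1.18. Rpl13 had 1109 and 768 CPM and 7.1, 515 and 581, and Rps2 had 1046 and 446 CPM and 93.8, 335 and 421.

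Rpl19 is of interest because it was a reference gene for mouse samples in the qRT-PCR of the study. It had 36868 and 15242 counts in the Zeb1WT/ApoeKO libraries and 39728, 19559 and 9727 in the Zeb1∆M/ApoeKO libraries. As CPM these were 1335 and 442, and 3278, 457 and 194, so that the genotypes overlapped and both libraries numbered 1 were the higher in their genotype. On the log2 scale the Zeb1∆M/ApoeKO libraries differed by 0.56 ± 2.76 (edgeR, ± standard error), and the adjusted p and the two-sided exact permutation p were both 1. The highest CPM was 16.9 times the lowest, which placed Rpl19 25th from the most even of the 77 genes, and between 23rd and 39th with the other scalings. Its direction depended on the scaling, with −0.60 with upper-quartile factors and −0.53 with total counts alone. It also depended on single libraries, with −1.73 without Zeb1∆M/ApoeKO replicate 1 and −0.52 without Zeb1WT/ApoeKO replicate 2. In all, 8 of 16 alternatives reversed the sign. The qRT-PCR samples themselves were not analysed here.

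Rpsa, a small subunit protein also known as the laminin receptor, had 92.6 and 47.9 CPM in the Zeb1WT/ApoeKO libraries and 2.15, 800 and 397 in the Zeb1∆M/ApoeKO libraries. Zeb1∆M/ApoeKO replicate 1 was thus the lowest and replicates 2 and 3 the highest of the 5 libraries. The difference on the log2 scale was 2.51 ± 4.17 (edgeR, ± standard error) at an adjusted p of 1, within the spread between the Zeb1∆M/ApoeKO libraries, and the two-sided exact permutation p was 1. It was 1.57 without Zeb1∆M/ApoeKO replicate 2. It turned to −2.42 with upper-quartile factors and to −0.66 with the replicate number as a block.

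Of the 8 paralogs, 5 passed the filter. Rpl22l1, a paralog that can take the place of Rpl22 in the large subunit, had 0 and 2 counts in the Zeb1WT/ApoeKO libraries and 9, 3125 and 3038 in the Zeb1∆M/ApoeKO libraries. The Zeb1WT/ApoeKO libraries were both under the floor and Zeb1∆M/ApoeKO replicate 1 just above it. Rpl22l1 thus passed the filter on low counts only through Zeb1∆M/ApoeKO libraries, where it was high. The calls below are not independent of that and are no support for a difference. Zeb1∆M/ApoeKO libraries averaged 44.8 ± 38.6 CPM (SD, n = 3). Their mean was at least 457-fold higher than a level of 3 counts per library in the Zeb1WT/ApoeKO libraries. The fitted difference was 10.40 ± 7.75 on the log2 scale (edgeR, ± standard error) with an adjusted p of 1, and the two-sided exact permutation p was 0.2. DESeq2 gave an adjusted p of 0.0172 and limma-voom of 0.0169, with log2 fold changes of 10.55 and 10.42. In fits without Zeb1∆M/ApoeKO replicate 1 that were added after the data were seen, DESeq2 kept the call (adjusted p = 0.00712, with 30% of all genes called) and limma-voom lost it (0.061, with 2.99% of all genes called), and the differences were 11.07 and 10.63. Over all alternatives, these included, the adjusted p of Rpl22l1 lay between 0.00712 and 1. Rpl22 itself had 4588 and 28 counts in the Zeb1WT/ApoeKO libraries and 11763, 130 and 2692 in the Zeb1∆M/ApoeKO libraries, with overlap between genotypes.

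Rpl36al and Rps27rt had more than 100 counts in every library, Rpl36al with 7804 and 5771 counts in the Zeb1WT/ApoeKO libraries and 23588, 11948 and 13612 in the Zeb1∆M/ApoeKO libraries. Rps27l, a paralog of Rps27 induced by p53, had 0 counts in Zeb1∆M/ApoeKO replicate 1 and between 2301 and 11435 in the other 4. Rpl7l1 had 1 and 2625 counts in the Zeb1WT/ApoeKO libraries and 3502, 15605 and 0 in the Zeb1∆M/ApoeKO libraries. The muscle paralog Rpl3l and the testis paralog Rpl10l had 0 counts in all 5 libraries, and Rpl39l had 1 count in Zeb1∆M/ApoeKO replicate 1. These genes were not detectable at this depth, and a count of 0 allows up to 3 counts per library.

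Near-identical copies could take reads from their parents. Of the 8 copies within the name rule 4 passed the filter, and Rpl36-ps4 and Rpl9-ps1 had 0 counts in every library. Rpl10-ps3 had 2053 and 543 counts in the Zeb1WT/ApoeKO libraries and 548, 758 and 821 in the Zeb1∆M/ApoeKO libraries, and Rpl9-ps6 had 114 and 70, and 0, 702 and 944. Rps18-ps5, whose parent by name is Rps18, had 2 and 37 counts in the Zeb1WT/ApoeKO libraries and 111, 108 and 239 in the Zeb1∆M/ApoeKO libraries. The difference was 3.25 ± 4.48 on the log2 scale (edgeR, ± standard error) with an adjusted p of 1 and a two-sided exact permutation p of 0.1, and was 5.87 without Zeb1WT/ApoeKO replicate 2. How reads were split between the copy and Rps18 is uncertain. The 310 pseudogenes named after members held between 0.32% and 0.663% of the counts of the members, and adding them to their parents left 0 members past the threshold. Exons of 16 members overlap those of another protein-coding gene, for 13 of them on the opposite strand.

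Ribosomal protein genes with names outside the rule had at least 100 counts in every library. Fau, which encodes a small subunit protein fused to a ubiquitin-like protein, had 21110 and 21157 counts in the Zeb1WT/ApoeKO libraries and 33073, 23042 and 24471 in the Zeb1∆M/ApoeKO libraries. For Rack1, a scaffold on the small subunit, these were 58239 and 12949, and 292, 8140 and 28793, so that its lowest value was in Zeb1∆M/ApoeKO replicate 1. Neither passed the test, with an adjusted p of 1 from edgeR for both.

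Genes that act with the ribosome were also nearly absent from some libraries. Of 14 elongation factors and other TOP mRNAs, 4 and 2 had fewer than 100 counts in Zeb1WT/ApoeKO replicates 1 and 2, and 10, 4 and 2 in Zeb1∆M/ApoeKO replicates 1, 2 and 3. For 23 initiation factors the numbers were 13 and 5, and 21, 9 and 5. For 32 genes of ribosome biogenesis they were 28 and 19, and 32, 23 and 20, and for 13 genes of mTORC1 and TOP control 11 and 6, and 12, 7 and 8. In each list the number was highest in Zeb1∆M/ApoeKO replicate 1. How these numbers depend on the abundance of the genes was not tested.

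With edgeR, 0 of the tested genes of these lists had an adjusted p under 0.05 in either direction, nor an unadjusted p under 0.05. These were 13 of 14 elongation factors and other TOP mRNAs (5 with a log2 fold change above 0 and 8 below, median −0.66), 20 of 23 initiation factors (8 and 12, median −0.43), 16 of 32 biogenesis genes (9 and 7, median 0.34) and 8 of 13 genes of mTORC1 and TOP control (7 and 1, median 1.93), against a median of 0.78 over all genes tested. Over all these lists DESeq2 called 4 of 38 genes with an adjusted p (12.1% over all genes) and limma-voom 2 of 57 (2.96%), the initiation factors Eif4h and Eif3d. Of the 4, 3 had not passed the filter for edgeR and had more than 5 counts in a single Zeb1WT/ApoeKO library each, namely Nop16 (6777 in replicate 2) and Nhp2 (3268 in replicate 2) of ribosome biogenesis, and the kinase Akt1 (11097 in replicate 1). The initiation factor Eif4h, which assists the helicase Eif4a, was called by both tools (adjusted p = 0.00221 with DESeq2 and 3.02e-05 with limma-voom, against 1 with edgeR). It had 0 and 4 counts in the Zeb1WT/ApoeKO libraries and 16, 16804 and 33722 in the Zeb1∆M/ApoeKO libraries. Eif4h thus passed the filter on low counts only through Zeb1∆M/ApoeKO libraries, where it was high, and its calls are no support for a difference. The genes called here were named after their values were seen. Eef1a1, the most abundant elongation factor, had 70511 and 49095 counts in the Zeb1WT/ApoeKO libraries and 1849, 74924 and 94245 in the Zeb1∆M/ApoeKO libraries, again lowest in Zeb1∆M/ApoeKO replicate 1.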

How the data were processed

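RNAseq of macrophages sorted from aortas was available for 5 libraries, whose labels give the genotype used for grouping. The authors mapped reads to GRCm38 with STAR 2.5.3a, quantified genes with RSEM 1.3.0 and deposited expected counts as whole numbers for 55487 genes, with no normalization and no filter.

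edgeR 4.0.16 (R 4.3.3) was used on these counts. After filterByExpr with a minimum count of 10, 7905 genes were scaled with TMM (factors 0.515 to 1.42) and compared with the quasi-likelihood test, with Benjamini-Hochberg adjustment and a threshold of 0.05. CPM uses TMM sizes, except for marker lists, which use total counts. Per-kilobase values use the longest principal transcript in GENCODE M21, in which all 93 members were found with identifier and version. RSEM's effective lengths were not used here. The two-sided exact permutation test used the absolute difference of mean log2 CPM over 10 splits (Python 3.11.15, scipy 1.17.1). Alternatives were DESeq2 1.42.0, limma-voom (limma 3.58.1), other scalings and filters, the replicate number as a block and libraries left out. The tests were also run on simulated counts with a far lower dispersion than the common dispersion of 6.44 that edgeR fitted here. That run does not show their power on these data. Windows around start sites were read from RefSeq tables for GRCm38.p6.

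The members and gene lists were chosen with earlier results of these data known. A log2 fold change is given for Rpl19, Rps18, Rplp0, Rpsa and the 12 members with the largest absolute change among those without overlap between genotypes. Counts are given for the 5 highest and 5 lowest members per kilobase. Other genes were named after their values were seen. Some genes that enter these counts and fits are not reported by name here.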

Additional observations from a re-analysis of the deposited data

How the results depend on the processing

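With edgeR, 0 members passed in every fit run, whatever the scaling, filter, library left out or threshold (0.1). DESeq2 and limma-voom called 1 each, Rpl22l1, as did DESeq2 without Zeb1∆M/ApoeKO replicate 1, a fit added after seeing the data that called 30% of all genes. Rpl22l1 passed the filter on low counts only through Zeb1∆M/ApoeKO libraries. In the paired fit with the replicate block, 0 members passed, and the numbers are shared by 2 libraries of each genotype whose differences correlated at 0.18 over 7905 genes. Nothing in the labels says that a shared number marks a shared day or mouse.

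The members' median log2 fold change minus that of all genes was 0.31. It was −2.1 with DESeq2 and −2.09 without a filter, fits that take in more genes, and between −5.92 and 0.84 with 1 library left out. Members without overlap numbered 7 higher (6.6% of all genes) and 2 lower (4.29%) with RLE size factors, 4 (5.95%) and 1 (4.91%) with upper-quartile factors, and 61 (22.3%) and 6 (30.5%) without both libraries numbered 1. With 1 library left out 13 to 35 were higher, against 11.6% to 17.1% of all genes, and 2 to 25 lower, against 7.35% to 25.5%. Leaving out a Zeb1WT/ApoeKO library leaves 1, assumed to vary like the others. At 3 counts or fewer in some library were 22 of 93 members, and 14 were at 0. Over the 4 pathway lists DESeq2 called 4 of 38 genes (12.1% over all genes) and limma-voom 2 of 57 (2.96%). For these values the cause was not tested.

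Of the 15 fold changes under the naming rule, 12 kept their sign throughout. Their sizes moved widely over the alternatives, from 0.49 to 7.14 for Rpl7, 0.84 to 5.88 for Rps18, 0.96 to 5.32 for Rpl32, 0.90 to 5.02 for Rps19, 0.75 to 4.90 for Rps27a, 0.89 to 3.19 for Rpl12, 0.55 to 3.10 for Rpl38, 0.41 to 2.98 for Rps25, 1.91 to 5.87 for Rps18-ps5, 9.37 to 13.61 for Rpl22l1 and −6.27 to −1.16 for Rpl4. Rplp0 ran down to −5.29. Rpl19 was −1.24 with limma-voom, −0.60 with upper-quartile factors, −0.53 with total counts, −0.64 without a filter, −0.19 with at least 10 counts in every library, −0.29 without both libraries numbered 1, and between −1.73 and 1.34 with 1 library left out. Rplp0 was 0.00 without both libraries numbered 1, and Rpsa −2.42 with upper-quartile factors and −0.66 with the replicate block.

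Genes with over 1000 counts in most libraries had fewer than 100 in another, and 2 libraries against 3 cannot give an exact permutation p below 0.1.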
